A study of Mus musculus with 8 samples.

Results

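The cells described here were picked out as candidate megakaryocyte-erythroid progenitors in cultures of mouse bone marrow. A chosen cell expressed no fewer than 300 genes, and mitochondrially encoded genes supplied no more than 10% of its UMIs. A UMI (unique molecular identifier) stands for 1 captured RNA molecule. Each also had at least 3 UMIs of Pf4, Itga2b, Car1 and Gata1 in sum, and fewer than 10 UMIs per 10000 from the basophil protease genes Prss34 and Mcpt8. The rule chose 217 of 17384 kept cells, which came from 17866 barcodes: 63 of 8321 kept cells from deoxycholic acid cultures and 154 of 9063 kept cells from media control cultures. These 6 genes made the choice, so their levels in the chosen cells describe the choice and are no finding.

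Whole bone marrow cells were cultured for 1 week over irradiated AFT024 cells, a stromal feeder line from mouse embryonic liver, in long-term culture medium with hydrocortisone. The treated cultures received deoxycholic acid at 35 µM, a secondary bile acid that gut bacteria make from cholic acid, and the media control cultures received none. Lineage-negative cells were sorted from both before capture on the 10x Chromium 3′ platform, from wells that also held the feeder cells. The sources used here give neither strain, age and sex of the mice nor the antibodies of the lineage gate. Each group has 4 labelled samples, but the cell names carry the group alone, so each group was treated as 1 library. No difference between the groups therefore has a replicate check, and no p-value or standard error is given. Intervals are exact 95% counting intervals and cover counting error only, and the UMIs of 1 cell are not independent of each other. The series title concerns the vitamin D receptor and myelopoiesis.

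The deoxycholic acid library was the shallower one. Its kept cells had a median of 14829 UMIs, against 19168 UMIs in the media control library. The chosen cells were deeper than the kept cells as a whole, with a median of 20084 UMIs in deoxycholic acid and 27651.5 UMIs in media control. They ranged over 651 to 78294 UMIs in deoxycholic acid and over 521 to 83272 UMIs in media control. Summed, they held 1353497 UMIs from deoxycholic acid and 4611346 UMIs from media control. The libraries shared 25 cell barcodes, of which 0 belonged to a chosen cell.

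Megakaryocyte-erythroid progenitors give rise to megakaryocytes, which shed platelets, and to the precursors of red blood cells. Both lines depend on the transcription factor GATA1 and its cofactor FOG1, encoded by Zfpm1, while GATA2 acts earlier and in mast cells too. Pf4 encodes platelet factor 4, a chemokine stored in platelet granules whose RNA is also found in some macrophages. Itga2b encodes CD41, the alpha chain of the platelet fibrinogen receptor. Car1 encodes carbonic anhydrase 1 of red cell precursors, and Hbb-bt an adult beta globin. Ctla2a encodes a small protein related to cysteine protease propeptides.

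GATA factors bind a short DNA motif, so the start regions of the rule genes whose products mark the platelet line are shown with it. Each window runs from 250 bases before to 50 bases after the RefSeq start of the gene (GRCm38.p6), 5′ to 3′ on the gene's own strand, and the capitals mark AGATAA or TGATAA on either strand. The Pf4 window is chr5:90772185-90772484 on the plus strand, and the Itga2b window is chr11:102469834-102470133 on the minus strand.
Pf4: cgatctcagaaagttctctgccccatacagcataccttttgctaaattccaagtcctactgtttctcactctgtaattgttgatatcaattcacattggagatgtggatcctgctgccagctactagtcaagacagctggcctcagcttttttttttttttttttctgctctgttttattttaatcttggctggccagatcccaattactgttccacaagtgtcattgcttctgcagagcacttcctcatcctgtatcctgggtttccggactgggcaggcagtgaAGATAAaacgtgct
Itga2b: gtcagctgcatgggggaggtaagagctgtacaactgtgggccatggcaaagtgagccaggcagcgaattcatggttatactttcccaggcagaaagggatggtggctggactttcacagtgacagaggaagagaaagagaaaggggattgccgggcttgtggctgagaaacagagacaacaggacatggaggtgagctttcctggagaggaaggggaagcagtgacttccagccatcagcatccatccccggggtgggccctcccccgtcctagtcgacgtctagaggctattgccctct
The Pf4 window held 1 match, which lies in the bases after the start. The Itga2b window held 0 matches, as did the windows of Gata1 (chrX:7967861-7968160, minus strand) and Hbb-bt (chr7:103813874-103814173, minus strand). Among all 32851 windows of this length, 18.6% held a match. Counted by gene, 21.0% of 27025 genes had a window with a match, and so did 26 of the 64 genes (40.6%) of the megakaryocyte, erythroid and rule lists that had one. A match is a run of letters and no evidence of binding.

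The label held for a minority of the chosen cells. Most were deep cells with 3 or 4 UMIs of the rule genes, nearly all of Pf4, and with high levels of Elane, Mpo, Prtn3 and Ctsg, which encode proteins of the primary granules of neutrophil precursors. In deoxycholic acid 38 of 63 chosen cells (60.3%) had 3 to 4 rule-gene UMIs, and in media control 111 of 154 (72.1%). Pf4 was the only rule gene detected in 33 of those 38 and in 97 of those 111 cells. Their median content of the 4 primary granule genes was 127 UMIs per 10000 in deoxycholic acid and 134 UMIs per 10000 in media control. At least 10 UMIs per 10000 of these genes were present in 35 of the 38 and in 108 of the 111 cells. The cells are therefore called rule-chosen cells below, and no other cell type name is given to them.

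Cells with more rule-gene UMIs looked different. The division into 3 to 4, 5 to 7, and 8 or more UMIs was made after the values were seen. With 5 to 7 UMIs there were 12 cells in deoxycholic acid and 20 in media control, with a median of 57.1 and 74.1 primary granule UMIs per 10000. With 8 or more there were 13 cells in deoxycholic acid (20.6% of the chosen) and 23 in media control (14.9%). Their median primary granule content was 1.11 UMIs per 10000 in deoxycholic acid and 1.30 UMIs per 10000 in media control. Of these cells, 0 of 13 in deoxycholic acid and 1 of 23 in media control reached 10 per 10000. They were also shallower, with a median of 11376 UMIs in deoxycholic acid and 12907 UMIs in media control.

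**Figure D1:**
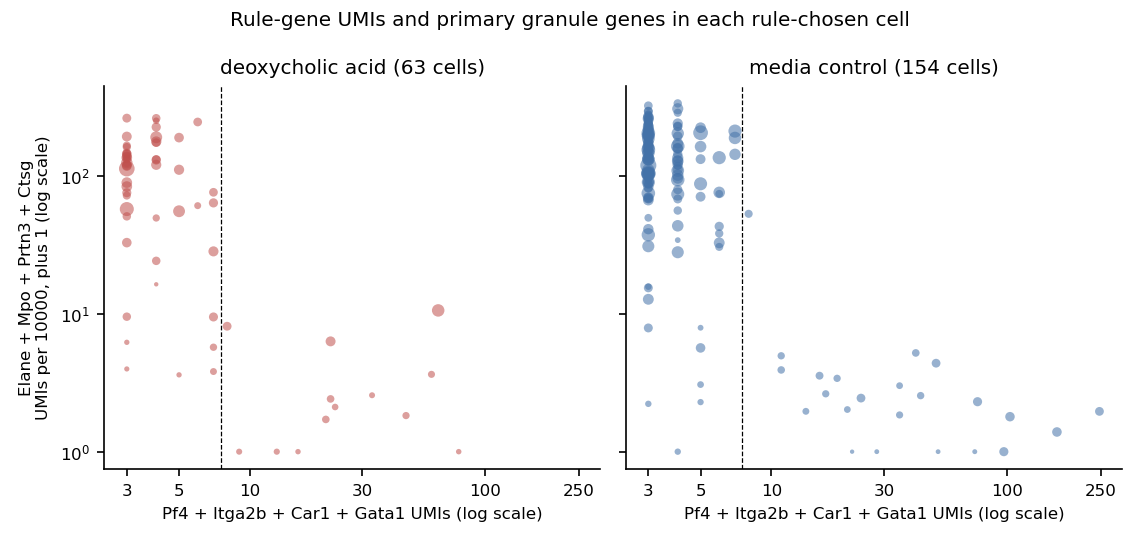
Each point is 1 rule-chosen cell, with its summed Pf4, Itga2b, Car1 and Gata1 UMIs on the x axis (log scale) and its Elane, Mpo, Prtn3 and Ctsg UMIs per 10000 plus 1 on the y axis (log scale); larger points are deeper cells and the dashed line marks 8 UMIs. In both panels, the 63 deoxycholic acid cells and the 154 media control cells, points to the left of the line lie mostly near 100 per 10000, and those to the right of it lie near the bottom, apart from 1 media control cell at 52.1 per 10000.

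At the threshold itself, cells just inside and just outside had close medians of the granule genes. The 26 deoxycholic acid cells and 80 media control cells with exactly 3 rule-gene UMIs had a median of 120 and 144 primary granule UMIs per 10000. The 146 deoxycholic acid cells and 227 media control cells with 2 UMIs, just outside the rule, had a median of 137 and 122 per 10000. Kept cells with 0 rule-gene UMIs, 7338 in deoxycholic acid and 7563 in media control, had medians of 15.6 and 16.1 per 10000. Of the other threshold, 15 deoxycholic acid cells and 29 media control cells had 3 or more rule-gene UMIs but were left out for their Prss34 and Mcpt8 content. Just inside it, at 5 to 10 per 10000, were 2 deoxycholic acid cells and 4 media control cells.

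Low Pf4 counts were common outside the chosen cells. Cells with at least 10 Mpo UMIs per 10000 numbered 1676 in deoxycholic acid and 1713 in media control, and Pf4 was detected in 22.5% and 28.8% of them at a median of 18470.5 and 24508 UMIs. Other cells had at least 5 UMIs per 10000 of the late neutrophil genes Cxcr2 and Mmp9. Pf4 was detected in 4 of 292 of them (1.37%) in deoxycholic acid and 5 of 386 (1.30%) in media control. Their median was 4625 and 5573.5 UMIs. With every cell thinned to 5000 UMIs the shares in Mpo-rich cells were 7.14% (5.94 to 8.49) and 8.35% (7.07 to 9.78). In Cxcr2 and Mmp9 cells they were 0.752% (0.0190 to 4.12) and 1.66% (0.454 to 4.19), from 1 of 133 and 4 of 241 cells. Shallower cells were left out of the thinned shares: 23 in deoxycholic acid and 36 in media control among Mpo-rich cells, and 159 and 145 among Cxcr2 and Mmp9 cells. Itga2b was detected in 1.13% of Mpo-rich cells in deoxycholic acid and 2.45% in media control. Mpo-rich cells supplied 21 of the chosen cells in deoxycholic acid and 65 in media control, counting those past the 3-UMI threshold before the basophil gene limit.

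The rule genes themselves were spread unevenly over the chosen cells. CPM here is a gene's UMIs in every 1000000 UMIs of the summed cells, and is not adjusted for gene length. Pf4 stood at 309 CPM (280 to 340) in deoxycholic acid and 288 CPM (273 to 304) in media control, against 7.03 and 7.46 CPM in the other kept cells. A Pf4 UMI was found in 87.3% of the chosen deoxycholic acid cells and 92.9% of the chosen media control cells, and the 10 cells with the most Pf4 held 64.6% and 61.2% of it. Itga2b stood at 40.6 CPM in deoxycholic acid, from 18 cells, and 31.9 CPM in media control, from 39 cells. Car1 came from 8 cells in each library, at 93.8 CPM in deoxycholic acid and 39.7 CPM in media control, and 1 cell supplied 36.2% and 49.2% of its UMIs. Gata1 was sparse, at 8.87 CPM from 6 cells in deoxycholic acid and 4.99 CPM from 16 cells in media control.

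Genes that the rule did not use went with the number of rule-gene UMIs. Of these, Ctla2a and Hbb-bt were already listed as markers of this group with results of these data known, so their levels describe it. Ctla2a stood at 87.6 CPM in deoxycholic acid and 103 CPM in media control in cells with 3 to 4 UMIs. It stood at 1060 and 557 CPM in cells with 5 to 7 UMIs, and at 2293 and 3178 CPM in cells with 8 or more. It was detected in 9 of 38, 8 of 12 and 11 of 13 of these deoxycholic acid cells and in 38 of 111, 15 of 20 and 21 of 23 media control cells. The other kept cells had 10.5 CPM of Ctla2a in deoxycholic acid and 14.5 CPM in media control. Cells past the Prss34 and Mcpt8 limit, 105 in deoxycholic acid and 150 in media control, are in neither set and also carried Ctla2a. They had 496 CPM in deoxycholic acid and 313 CPM in media control, with detection in 68.6% and 70.7% of cells. All chosen cells together had 574 and 379 CPM, with detection in 44.4% and 48.1%, so Ctla2a was not particular to them. Mpo-rich cells had 28.2 CPM in deoxycholic acid and 38.6 CPM in media control. In cells with 3 to 4 UMIs few cells carried the Ctla2a level: the median was 0 in both libraries, and 4 of 38 deoxycholic acid and 14 of 111 media control cells had 5 or more UMIs of it. By detection they lay below Mpo-rich cells, at 23.7% in deoxycholic acid and 34.2% in media control, against 30.3% and 39.4% of Mpo-rich cells.

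Transcription factors of the lineage took the same course. Zfpm1 (FOG1) stood at 139 CPM in deoxycholic acid and 238 CPM in media control in cells with 8 or more UMIs, with a UMI in 10 of 13 and 17 of 23 cells. In cells with 3 to 4 UMIs it stood at 3.28 and 1.10 CPM, and in other kept cells at 0.280 and 0.397 CPM. Gata2 stood at 192 CPM in deoxycholic acid and 188 CPM in media control in the cells with 8 or more UMIs, and at 9.85 and 10.4 CPM in those with 3 to 4. Hbb-bt stood at 545 and 1045 CPM with 8 or more UMIs, against 29.6 and 15.9 CPM with 3 to 4 UMIs and 0.950 and 1.03 CPM in other kept cells. Elane ran the other way, at 107 CPM in deoxycholic acid and 37.7 CPM in media control with 8 or more UMIs, and at 4558 and 4716 CPM with 3 to 4. How far depth and free RNA set the low Pf4 counts was not tested.

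**Figure D2:**
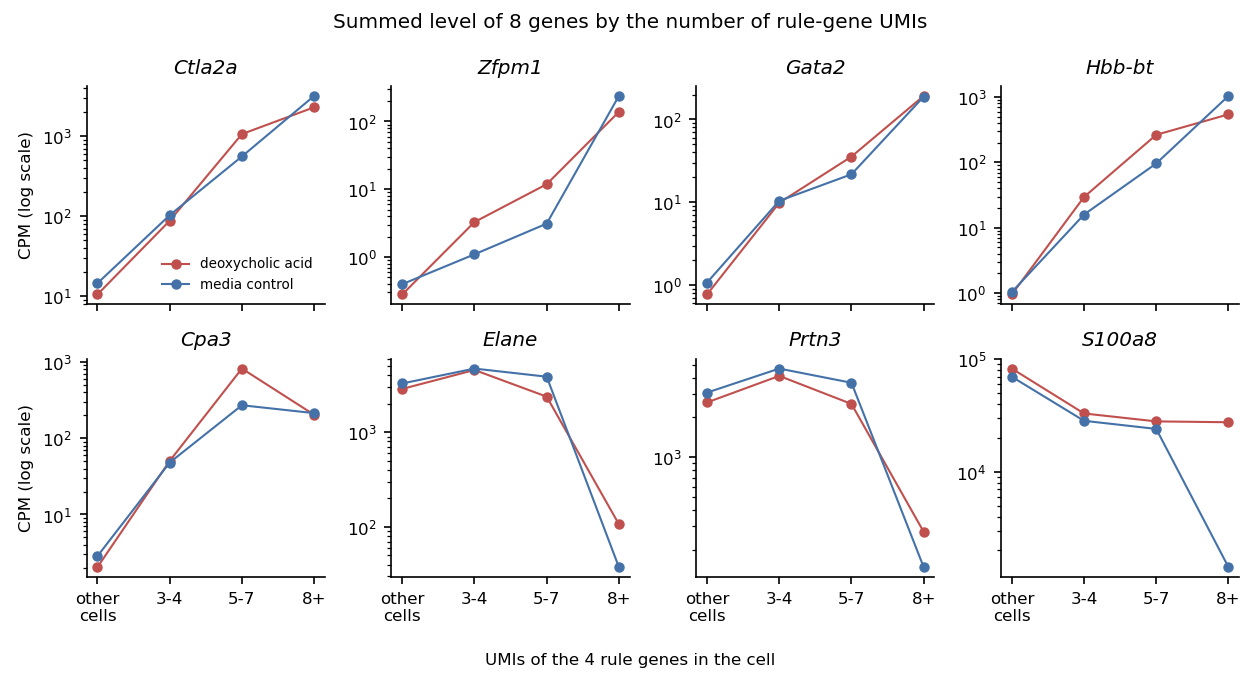
Summed level (CPM, log scale) of 8 genes in other kept cells and in rule-chosen cells with 3 to 4, 5 to 7 and 8 or more rule-gene UMIs, in deoxycholic acid (red) and media control (blue). Ctla2a, Zfpm1, Gata2 and Hbb-bt are highest with 8 or more UMIs in both libraries, Elane and Prtn3 are lowest there, and S100a8 stands at 27545 CPM in deoxycholic acid against 1425 CPM in media control with 8 or more UMIs, where cells 2, 7 and 8 carry the deoxycholic acid level and the median cell has 10 and 8 UMIs.

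Across 1009 genes with at least 100 CPM in the cells with 8 or more UMIs and a UMI in at least 50% of them in both libraries, those standing highest over the other kept cells were a mixed set. Besides Zfpm1, Ctla2a and Gata2 it held Nrgn, which encodes the calmodulin-binding protein neurogranin and is found in platelets, at 502 CPM in deoxycholic acid and 436 CPM in media control. Adgrg1, encoding an adhesion receptor of stem and progenitor cells, stood at 198 CPM in deoxycholic acid and 267 CPM in media control. Kit, the stem cell factor receptor, stood at 262 and 198 CPM, and Car2, carbonic anhydrase 2, at 283 and 242 CPM. The immediate early gene Egr1 stood at 540 and 1173 CPM, and Rgs1, a regulator of G protein signalling, at 444 and 665 CPM. The defining genes of a group chosen by its expression are a description of that group.

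The 36 cells with 8 or more UMIs fell into those led by Pf4 or Itga2b and those led by Car1. In deoxycholic acid 8 were led by Pf4 or Itga2b and 5 by Car1, and in media control 17 and 6. In the Pf4- or Itga2b-led cells Pf4 had a median of 22.5 UMIs and a highest value of 67 in deoxycholic acid, against a median of 34 and a highest value of 233 in media control. Ctla2a was found in 6 of 8 of them in deoxycholic acid and 15 of 17 in media control. Plek, which encodes the platelet protein pleckstrin, was found in 6 of 8 and 14 of 17 cells. Itgb3, the beta chain that pairs with CD41, was found in 6 of 8 and 9 of 17. Car1 was detected in 2 of 8 of these cells in deoxycholic acid and 0 of 17 in media control.

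Some platelet receptor genes were detected in few of the deoxycholic acid cells. The 8 Pf4- or Itga2b-led deoxycholic acid cells were shallower than the 17 media control cells, with a median of 9304.5 against 13725 UMIs. They include cell 3, which carries several macrophage genes, and cell 11, which had 21 F13a1 and 2 Mrc1 UMIs but 0 of Ctss and C1qb. Both cells had 0 Ctla2a UMIs. Gp9, a subunit of the von Willebrand factor receptor, was detected in 1 of 8 Pf4- or Itga2b-led cells in deoxycholic acid and in 13 of 17 in media control. Treml1, a platelet granule receptor, was detected in 0 of 8 and 6 of 17. Gp1bb, another subunit of that receptor, was detected in 0 of 8 and 4 of 17. Over all chosen cells, Treml1 had 1 UMI in deoxycholic acid and 20 in media control. Vwf, Gp6, Tubb1 and Pdgfa had 0 UMIs in the chosen cells of both libraries. With 8 cells from 1 library and 17 from another, whether the deoxycholic acid cultures differed in these genes was not tested.

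The Car1-led cells carried red cell genes. Car1 had a median of 20 UMIs and a highest value of 46 in the 5 deoxycholic acid cells, and a median of 18 and a highest value of 90 in the 6 media control cells. Zfpm1 was found in 5 of 5 deoxycholic acid and 6 of 6 media control cells, and Ctla2a likewise. Car2 was found in 4 of 5 and 6 of 6, Aqp1, the water channel of red cells, in 4 of 5 and 5 of 6, and Rhag, a red cell membrane glycoprotein, in 3 of 5 and 6 of 6. Klf1, the erythroid transcription factor, was found in 4 of 5 deoxycholic acid and 1 of 6 media control cells. Hbb-bt was found in 5 of 5 deoxycholic acid cells, with a median of 11 UMIs, and in 3 of 6 media control cells. Itgb3 was found in 0 of 5 and 0 of 6. The red cell genes Slc4a1, Ermap, Trim10 and Alas2, the haem synthesis enzyme of red cell precursors, had 0 UMIs in the chosen cells of both libraries.

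Globin RNA was concentrated in few cells. Hbb-bt stood at 145 CPM in the chosen deoxycholic acid cells and 98.2 CPM in the chosen media control cells, from 15 and 23 cells. The top 10 cells held 94.9% of its UMIs in deoxycholic acid and 92.7% in media control. The highest cell had 43 UMIs in deoxycholic acid and 147 UMIs in media control, both of them Car1-led. Reads of Hbb-bt and of its near-identical neighbour Hbb-bs could have been split by the counting. Hbb-bs was listed with 0 UMIs in chosen deoxycholic acid cells and 2 in media control, and the alpha globin Hba-a1 with 0 and 9.

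**Figure D3:**
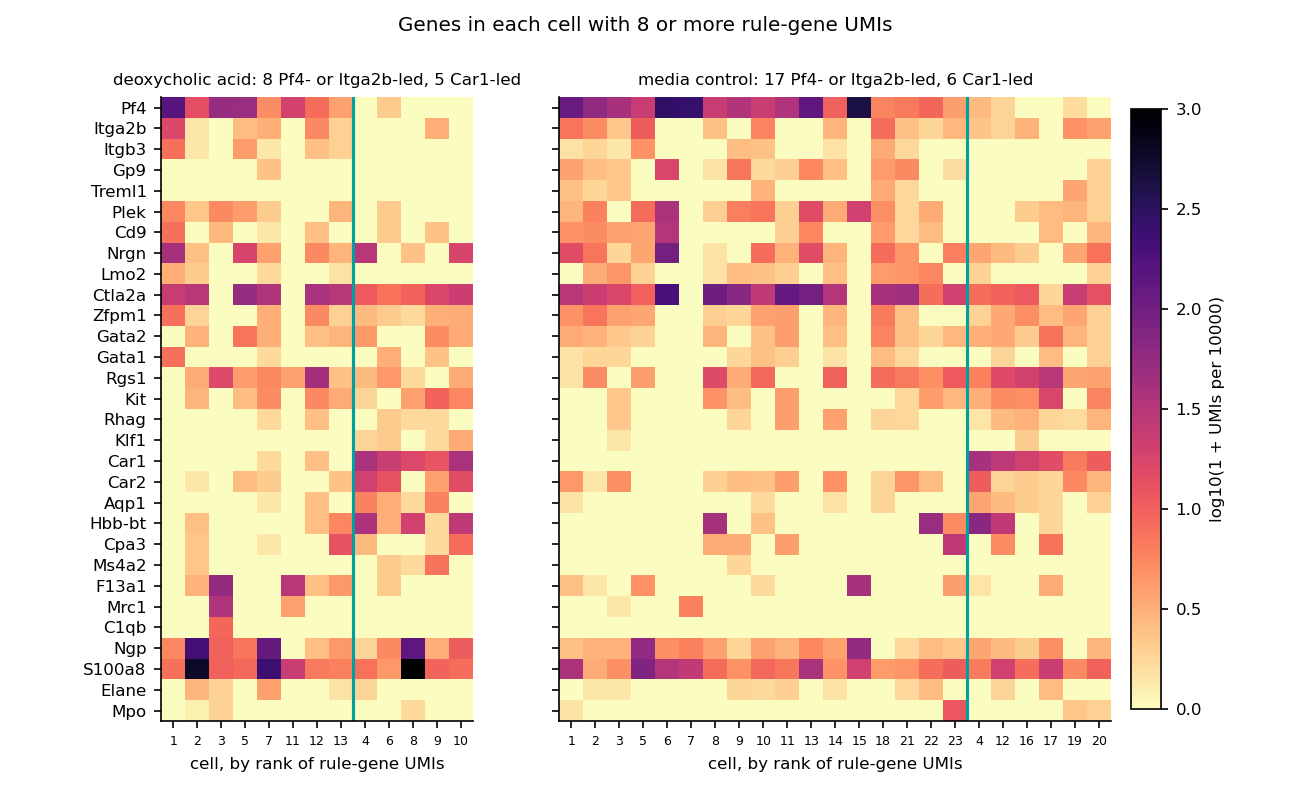
Genes (rows) in each of the 13 deoxycholic acid (left) and 23 media control (right) cells with 8 or more rule-gene UMIs (columns, numbered by rank), as log10 of 1 plus UMIs per 10000, with colours saturating at 3. The teal line parts Pf4- or Itga2b-led cells from Car1-led cells; Gp9 is present in 1 of 8 and 13 of 17 of the cells left of the line, and S100a8 and Ngp are darkest in deoxycholic acid cells 2, 7 and 8.

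Single cells show how varied this small group was. The deoxycholic acid cell with the most rule-gene UMIs had 67 of Pf4, 7 of Itga2b, 3 of Gata1 and 17 of Nrgn among 4412 UMIs. Its media control counterpart had 233 of Pf4, 13 of Itga2b, 6 of Gp9 and 29 of Nrgn among 20836 UMIs. The leading Car1 cell had 46 Car1, 43 Hbb-bt and 23 Car2 UMIs in deoxycholic acid, and 90 Car1, 147 Hbb-bt and 22 Car2 UMIs in media control. Deoxycholic acid cell 9 combined 16 UMIs of Car1 and 12 of Kit with 9 of Ms4a2, the beta chain of the mast cell and basophil IgE receptor.

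Some cells with many Pf4 UMIs carried the genes of other cell types, and the genes named here were chosen after their values were seen. Deoxycholic acid cell 3 had 59 Pf4 UMIs together with 62 of F13a1, 39 of the mannose receptor gene Mrc1, 34 of the lysosomal protease gene Ctss and 9 of the complement gene C1qb, all known from macrophages, and 0 of Ctla2a. Deoxycholic acid cell 11 had 13 Pf4, 21 F13a1 and 2 Mrc1 UMIs, and 0 of Ctss, C1qb and Ctla2a. Summed UMIs of the neutrophil genes Ltf, Camp, Ngp, Lcn2, S100a8 and S100a9 reached at most 257 per 10000 in any of the 23 media control cells. Deoxycholic acid cells 2, 7 and 8 held 1402, 1076 and 2680 per 10000. Of these, cell 2 had 61 Pf4, 140 Ctla2a, 2808 S100a8 and 1081 Ngp UMIs among 48021, and cell 8 had 22 Car1, 27 Hbb-bt and 1601 S100a8 UMIs among 14153. Among the media control cells, 4 were shallow barcodes rich in Pf4: cell 6 with 73 Pf4 of 2493 UMIs, cell 7 with 51 of 1933, cell 13 with 28 of 2115 and cell 15 with 22 of 521. A doublet score, with its cut set at the highest 6%, marked 1 of the 13 deoxycholic acid cells and 0 of the 23 media control cells. Over all chosen cells it marked 8 (12.7%) in deoxycholic acid and 10 (6.49%) in media control. Of all kept cells it marked 6.80% in deoxycholic acid and 6.27% in media control. The chosen deoxycholic acid cells were thus marked more often than the kept cells of that library.

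The share of chosen cells was lower in deoxycholic acid. It was 0.757% of kept cells (0.582 to 0.968) in deoxycholic acid and 1.70% (1.44 to 1.99) in media control, a ratio of 0.446 (0.327 to 0.601). A threshold in raw UMIs lets more cells pass in a deeper library. With every cell thinned to 5000 UMIs, 18 of 7670 cells (0.235%, 0.139 to 0.371) passed in deoxycholic acid and 23 of 8394 (0.274%, 0.174 to 0.411) in media control. The ratio was then 0.856 (0.436 to 1.66), with 651 and 669 shallower cells left out. With the threshold set at 2 rule-gene UMIs per 10000 in place of 3 UMIs the ratio was 0.809 (0.547 to 1.19).

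Stricter choices gave smaller shares and ratios between these values. Cells with 8 or more UMIs were 0.156% (0.0832 to 0.267) of kept cells in deoxycholic acid and 0.254% (0.161 to 0.381) in media control, a ratio of 0.616 (0.286 to 1.27). Chosen cells with fewer than 10 primary granule UMIs per 10000 numbered 20 (0.240%) in deoxycholic acid and 29 (0.320%) in media control, a ratio of 0.751 (0.403 to 1.37). With Pf4 left out of the sum, 15 cells (0.180%) in deoxycholic acid and 30 (0.331%) in media control passed, a ratio of 0.545 (0.272 to 1.04). A lower share at equal depth, or of the cells with most rule-gene UMIs, was therefore not detectable with these numbers of cells. The share of mature marrow cells removed by the sort in each library is not known and bears on every one of these shares.

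**Figure D4:**
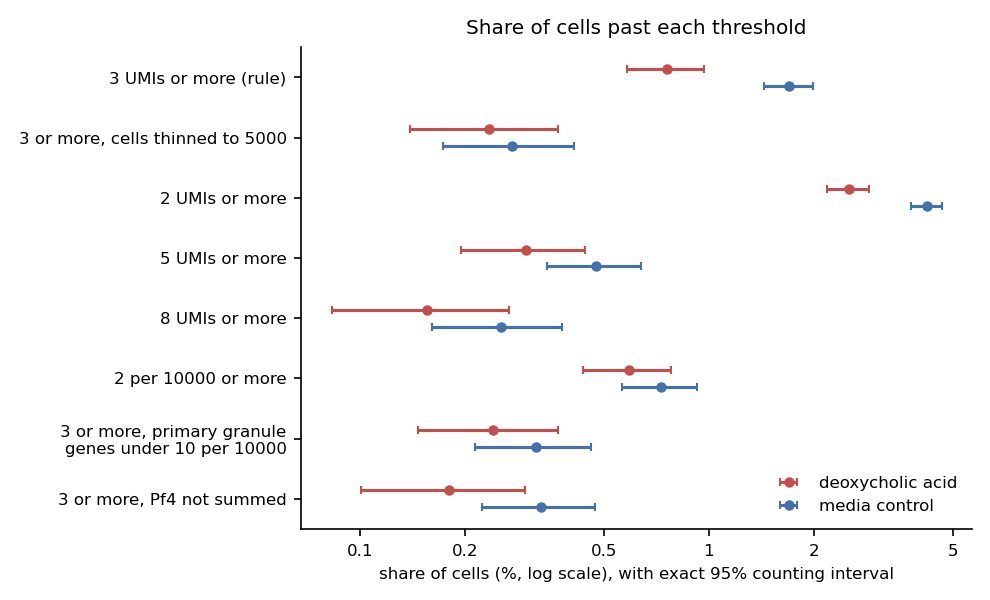
Share of cells (%, log scale) past each threshold in deoxycholic acid (red, upper point of each pair) and media control (blue), with exact 95% counting intervals. The intervals are apart for 3 or more UMIs (0.757% and 1.70%) and for 2 or more UMIs, and overlap for the other 6 choices, at 0.235% and 0.274% after thinning.

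Set against the other 16912 kept cells without basophil gene enrichment, the number of genes in which the chosen cells stood apart depended on which of them were counted and how. Of 2324 genes with at least 50 CPM on the higher side, 17 (0.731%) were higher in chosen cells by a log2 ratio of at least 1 in both libraries and 53 (2.28%) were lower. The number higher was 76 with a mean over cells, 109 for cells with 5 or more rule-gene UMIs and 246 for those with 8 or more. Hbb-bt was higher by a log2 ratio of 7.25 in deoxycholic acid and 6.57 in media control, and Ctla2a by 5.77 and 4.71. Cpa3, which encodes carboxypeptidase A3 of mast cell and basophil granules, was higher by 6.72 and 4.99. Egr1 was higher by 3.46 and 3.57. Prg2, the eosinophil granule major basic protein gene, was higher by 5.13 and 2.46, but 1 cell held 99.4% of its UMIs in deoxycholic acid and 61.9% in media control. Smaller differences were seen for Crip1, at 2.20 and 1.74, for the metallothionein gene Mt2, at 1.42 and 1.13, and for the fatty acid binding protein gene Fabp5, at 1.22 and 1.16.

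The lowest of these genes include several of late neutrophil maturation. Ltf, encoding lactoferrin of the secondary granules, stood at 169 CPM in chosen deoxycholic acid cells and 134 CPM in chosen media control cells, against 1125 and 968 CPM in the other kept cells. Retnlg, a neutrophil resistin-like gene, was at a log2 ratio of -4.46 in deoxycholic acid and -2.82 in media control. The cysteine protease inhibitor gene Stfa3 was at -4.98 and -2.59 and its relative Stfa2 at -3.46 and -2.65, in a family whose reads can be shared between members. Ifitm6 was at -2.43 and -3.23, and the neutrophil integrin gene Itgb2l at -1.88 and -1.81. Of 15 neutrophil genes 14 reached 5 CPM in the chosen cells, and 12 of them were lower and 0 higher in both libraries, where 1.32% of all genes at that level were lower and 3.26% higher.

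Between the libraries, the chosen cells gave 109 genes (5.15%) higher and 173 genes (8.18%) lower in deoxycholic acid by a log2 ratio of at least 0.5, among 2115 genes with at least 50 CPM, 100 UMIs and 25% of cells in the higher library. With median-of-ratios size factors in place of total UMIs the split was 69 higher and 311 lower. The median log2 ratio of all 2115 genes was -0.08 with total UMIs and -0.20 with size factors. In the other kept cells 45 (2.13%) of the same genes were higher and 89 (4.21%) lower. Of the 109, 34 were past the same limit in the other kept cells, and of the 173, 75 were. These counts compare 2 libraries, since each group is 1.

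Among the 10 genes highest in deoxycholic acid, most were also higher in the other kept cells. Hist1h2ap, a replication-dependent histone gene, stood at 1865 CPM in deoxycholic acid and 917 CPM in media control, a log2 ratio of 1.02 in chosen cells and 1.01 in the others. Hist1h4h had a ratio of 1.16 and 1.04 in the others, and Gm10076 a ratio of 1.10 and 1.05 in the others. Hk2, encoding the glycolytic enzyme hexokinase 2, stood at 173 and 88.9 CPM, a ratio of 0.96 and 0.77 in the others. The long noncoding RNA host Dleu2 had a ratio of 1.10 and 0.93 in the others, and Mt2 0.96 and 0.67. Histone genes form a multigene family whose reads may be shared.

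The remaining 4 of these 10 had ratios of at most 0.30 in the other kept cells, and single cells weighed on them. Cpa3 stood at 215 CPM in deoxycholic acid, from 16 cells, and 90.4 CPM in media control, from 28 cells, a log2 ratio of 1.25 (1.03 to 1.47) against -0.48 in the others. A single deoxycholic acid cell held 112 Cpa3 UMIs (38.5%), and with the top cell of each library left out the ratio was 0.71. The direction of Cpa3 turned with thinned cells (-0.14) and with 8 or more rule-gene UMIs (-0.071), but not with 5 or more (1.15). Nrgn stood at 95.3 CPM in deoxycholic acid, from 20 cells, and 46.0 CPM in media control, from 35 cells. Its ratio was 1.05 (0.72 to 1.37) against -0.53 in the others, and 0.81 without the top cells. In the cells with 3 to 4 rule-gene UMIs the ratio was -0.59, from 4 of 38 deoxycholic acid and 9 of 111 media control cells. It was 0.65 with 5 or more and 0.20 with 8 or more. Ccl6, a chemokine gene of myeloid cells, had a ratio of 1.00, and cell 3, the one with macrophage genes, held 41.3% of its UMIs in deoxycholic acid. Without the top cells the ratio of Ccl6 was 0.31. Grn, encoding progranulin, had a ratio of 1.09 against 0.30 in the others, and 0.86 without the top cells, of which cell 3 was again the deoxycholic acid one.

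The 10 genes lowest in deoxycholic acid were lower in the other kept cells too. Eloc, encoding elongin C, stood at 65.8 CPM in deoxycholic acid and 175 CPM in media control, a log2 ratio of -1.41 (-1.75 to -1.10) in chosen cells and -1.18 in the others. Ebna1bp2, a ribosome biogenesis gene, stood at 56.9 CPM in deoxycholic acid and 148 CPM in media control, a ratio of -1.38 against -0.83. Trem3, a myeloid surface receptor gene, stood at 62.1 and 160 CPM, a ratio of -1.36 against -0.94. The mitochondrial ribosomal protein gene Mrps28 had a ratio of -1.41 against -1.52. Hist1h2af had the lowest ratio, -1.79 against -1.19, at 17.0 CPM in deoxycholic acid and 58.8 CPM in media control. The others were Dynlt1f at -1.77, the prefoldin subunit gene Pfdn4 at -1.65, the proteasome assembly gene Psmg3 at -1.62, 2610001J05Rik at -1.35 and 1190007I07Rik at -1.31, with ratios of -1.31 to -0.57 in the other kept cells.

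**Figure D5:**
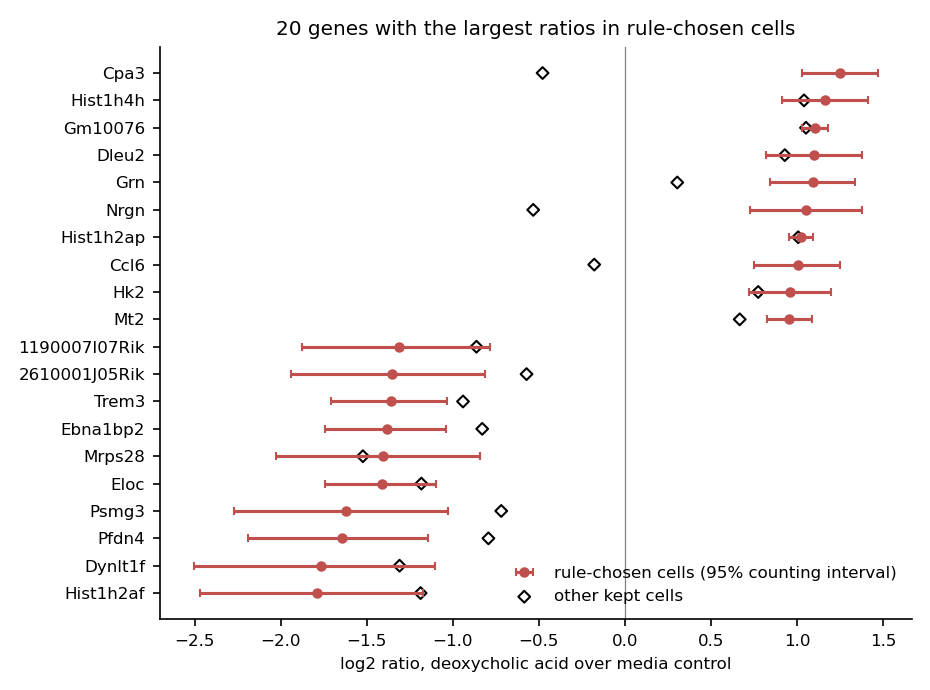
Log2 ratio of deoxycholic acid over media control for the 10 highest and 10 lowest genes in rule-chosen cells (red, with the exact 95% counting interval) and in other kept cells (open diamonds). The diamonds of Cpa3, Nrgn and Ccl6 lie on the opposite side of 0 from the red points, at -0.48, -0.53 and -0.18, and those of the other 17 genes on the same side.

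Gene lists give the wider view, over 8805 genes with at least 5 CPM in the chosen cells of either library. Of these, 1525 (17.3%) were higher and 895 (10.2%) lower in deoxycholic acid by a log2 ratio of at least 0.5, with a median of 0.07. Most list genes are low, a gene that is high in 1 library alone can enter through it, and a single cell can carry a ratio. Against the other kept cells, 287 of all genes (3.26%) were higher in chosen cells by a log2 ratio of at least 1 in both libraries and 116 (1.32%) lower.

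Of 23 megakaryocyte and platelet genes, 10 reached 5 CPM, of which 4 were higher and 3 lower in deoxycholic acid, with a median of 0.13 in chosen cells and -0.36 in the others. The list leaves out the rule genes, and its sum over all 23 was 474 CPM in deoxycholic acid and 408 CPM in media control, against 374 and 361 CPM in other kept cells. In the cells with 8 or more rule-gene UMIs the order turned, with a sum of 1042 CPM in deoxycholic acid and 1585 CPM in media control. Over all chosen cells the list member Thbs1 alone supplied 284 CPM in deoxycholic acid and 240 CPM in media control. In other kept cells it supplied 298 and 271 CPM. Gp9 stood at 6.65 CPM in deoxycholic acid and 11.3 CPM in media control, a log2 ratio of -0.76 (-1.97 to 0.27). Cd9, encoding a platelet tetraspanin, stood at 17.0 and 31.4 CPM, a ratio of -0.89 (-1.59 to -0.25). Itgb3 stood at 13.3 and 7.37 CPM, a ratio of 0.85 (-0.06 to 1.72), and Plek had a ratio of 0.02. Of the 10, 6 were higher in chosen than in other kept cells and 0 lower.

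Of 25 erythroid genes, 7 reached 5 CPM, of which 4 were higher and 0 lower in deoxycholic acid, with a median of 0.56 in chosen cells and -0.12 in the others. Car2 stood at 61.3 CPM in deoxycholic acid and 37.7 CPM in media control, a log2 ratio of 0.70 (0.31 to 1.09). Aqp1 stood at 15.5 CPM from 7 cells and 3.47 CPM from 10 cells, a ratio of 2.16 (1.15 to 3.20) that rests on 21 and 16 UMIs. Blvrb, encoding biliverdin reductase B, had a ratio of 0.56 (0.19 to 0.93), and Tfrc, the transferrin receptor gene, of 0.11. The Car1-led cells were 5 of 63 chosen cells in deoxycholic acid and 6 of 154 in media control, and their part in the erythroid ratios was not tested. The list summed to 528 CPM in chosen deoxycholic acid cells and 407 CPM in chosen media control cells, but to 1475 and 1861 CPM in those with 8 or more rule-gene UMIs. Of 12 haem synthesis genes 10 were measured, 1 higher and 3 lower, with a median of -0.18. Among them Alas1, the first enzyme of the path outside red cells, had a ratio of -0.23.

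Of 21 transcription factors of the megakaryocyte and erythroid lines, 20 were measured, 4 higher and 2 lower, with a median of 0.24 in chosen cells and 0.05 in the others, and 9 were higher in chosen than in other kept cells. Their sum was 824 CPM in deoxycholic acid and 743 CPM in media control over all chosen cells, but 1566 and 2190 CPM in those with 8 or more rule-gene UMIs. Gata2 stood at 39.9 CPM in deoxycholic acid and 24.3 CPM in media control, a log2 ratio of 0.72 (0.22 to 1.20). Zfpm1 stood at 23.6 and 17.8 CPM, a ratio of 0.41 (-0.23 to 1.02). Lmo2, an adaptor of the GATA complexes, stood at 22.9 and 42.1 CPM, a ratio of -0.88 (-1.47 to -0.33). Myb, a factor of proliferating progenitors, stood at 137 and 119 CPM, a ratio of 0.20.

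Of 22 stem and early progenitor genes 15 were measured, 8 higher and 0 lower, with a median of 0.52 in chosen cells and -0.11 in the others, and 10 were higher in chosen than in other kept cells. Kit stood at 70.2 CPM in deoxycholic acid and 41.4 CPM in media control, a log2 ratio of 0.76 (0.39 to 1.12). Cd34, the stem and progenitor surface glycoprotein gene, stood at 25.1 and 13.9 CPM, a ratio of 0.86 (0.21 to 1.48). Adgrg1 had a ratio of 0.52 (0.13 to 0.89) and Angpt1, encoding angiopoietin 1, of 0.05. The list's sum over all chosen cells was 2205 CPM in deoxycholic acid and 1775 CPM in media control. It was lower in deoxycholic acid in cells with 3 to 4 UMIs, at 1227 and 1410 CPM, and in those with 8 or more, at 6078 and 6379 CPM, and higher in those with 5 to 7, at 2876 and 1560 CPM. Cells with 8 or more rule-gene UMIs were 20.6% of the chosen cells in deoxycholic acid and 14.9% in media control.

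Markers of other cell types were present among the chosen cells and were not level between the libraries. Of 20 mast cell and basophil genes 11 were measured, 6 higher and 1 lower in deoxycholic acid, with a median of 0.61 in chosen cells and -0.46 in the others. Ms4a2 rested on 18 UMIs in deoxycholic acid and 15 in media control, and Il1rl1, the interleukin 33 receptor gene, on 26 and 30. The gene of mast cell chymase, Cma1, had 17 UMIs in 1 deoxycholic acid cell and 1 UMI in media control. Of 16 monocyte and macrophage genes 10 were measured, 6 higher and 1 lower in deoxycholic acid. Cell 3 alone held 95.1% of the Mrc1, 89.5% of the Ctss and 100% of the C1qb UMIs of the chosen deoxycholic acid cells, and these genes reached 5 CPM in that library only. F13a1 stood at 326 CPM in deoxycholic acid and 171 CPM in media control, a log2 ratio of 0.93 (0.76 to 1.10). Cell 3 held 14.1% of the F13a1 UMIs in deoxycholic acid, and without the top cells the ratio was 0.77. In the cells with 8 or more UMIs this list summed to 1513 CPM in deoxycholic acid and 298 CPM in media control, and the neutrophil list to 77118 and 4622 CPM. Of 10 eosinophil genes 5 were measured, 2 higher and 1 lower, and of the 14 measured neutrophil genes 2 were higher and 1 lower. Few other markers reached 5 CPM: 2 of 10 dendritic cell genes, 1 of 12 lymphoid genes and 1 of 11 stromal fibroblast genes, the list for the feeder cells. The part of these markers in the gene ratios was not tested.

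Primary granule genes were present in both libraries, with 0 of 7 higher and 1 lower. The 7 summed to 11458 CPM in chosen deoxycholic acid cells and 15015 CPM in chosen media control cells, against 8935 and 10605 CPM in other kept cells. Ctsg, encoding cathepsin G, stood at 2079 and 3539 CPM, a log2 ratio of -0.77 (-0.83 to -0.71), and Elane, encoding neutrophil elastase, at 3536 and 4274 CPM, a ratio of -0.27. The cells with 3 to 4 rule-gene UMIs, which are rich in these genes, made up 60.3% of the chosen cells in deoxycholic acid and 72.1% in media control. Within them the 7 genes summed to 14276 CPM in deoxycholic acid and 16422 CPM in media control. The sums were 9096 and 14153 CPM with 5 to 7 UMIs, and 887 and 640 CPM with 8 or more. The part of these shares in the lower sum was not tested.

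Of the general programmes, immediate early genes had 7 of 14 higher and 0 lower, with a median of 0.41 in chosen cells and 0.40 in the others. Fos had a log2 ratio of 0.78 and Dusp1, a phosphatase gene of the same response, of 0.80. Among the genes of DNA synthesis 1 of 16 was higher and 0 lower, and among mitotic genes 0 of 16 higher and 2 lower, with medians of 0.14 and -0.01. Glycolysis genes had 2 of 18 higher and 1 lower, with a median of 0.28 in chosen cells and 0.25 in the others. Ribosomal protein genes had 0 of 18 higher and 2 lower, with a median of -0.15 and -0.16. Of 15 cytokine receptor genes 10 were measured, 4 higher and 0 lower. Of the 6 genes of the C/EBP list, some of which drive granulocyte differentiation, 0 were higher and 2 lower. Of 10 bile acid and vitamin D receptor genes 3 reached 5 CPM in the chosen cells, 0 of them higher and 1 lower.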

How the data were processed

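Single cells of mouse bone marrow cultures, 4 labelled samples in each of 2 groups, were captured with Chromium 3′ v3.1 reagents at a target of 8000 cells a sample, per the labels' protocols. The deposited table gives raw UMI counts by gene and cell. The authors used Cell Ranger 6.0, per the submitters' processing notes. The sources used here name neither genome build nor cell filters. The table held 8520 deoxycholic acid barcodes with 131341422 UMIs and 9346 media control barcodes with 183462851 UMIs.

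The rule-chosen cells were taken from the counts, and the members and gene lists were chosen with earlier results of these data known. Counts were summed over cells and scaled to CPM with all UMIs of the sum as the total. A log2 ratio uses 3 in place of a count of 0 and leaves other counts as they are. Ratios carry exact conditional binomial intervals, shares Clopper-Pearson intervals and sums Poisson intervals, all at 95%. These cover counting error only. With 1 library per group no test across samples could be run. Ratios of at least 0.5 between libraries, or at least 1 between cell sets, were counted. The 10 highest and 10 lowest genes between libraries, 15 higher and 10 lower between cell sets, and list members were named. Cells with at least 10 Prss34 and Mcpt8 UMIs per 10000, 255 in all, were left out of the other kept cells. Doublets were scored with Scrublet in scanpy 1.11.5 and removed as an alternative. Promoter windows came from RefSeq. On simulated counts with 200 of 1650 genes changed 2-fold, the intervals held the true ratio for 94.8% of genes. Tables were handled with pandas 2.3.3 and numpy 2.4.6 in Python 3.11.15, intervals came from scipy 1.17.1 and plots from matplotlib 3.10.9. A few listed genes are not reported here by name.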

Additional observations from a re-analysis of the deposited data

Results flagged for a closer look

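In chosen cells Cpa3 had a log2 ratio of 1.25 in deoxycholic acid over media control and in the other kept cells -0.48, so over all chosen cells the contrast ran opposite to the other kept cells. That direction was lost in chosen cells thinned to 5000 UMIs (-0.14) and in those with 8 or more rule-gene UMIs (-0.071), and the ratio was 0.07 in those with 3 to 4. The direction held in those with 5 or more (1.15). With 5 to 7, Cpa3 stood at 819 CPM in deoxycholic acid and 271 CPM in media control. A single deoxycholic acid cell there held 112 UMIs. Nrgn was flagged in the same way, with a ratio of 1.05 in chosen cells and -0.53 in the other kept cells. The Nrgn ratio was -0.59 in chosen cells with 3 to 4 rule-gene UMIs, from 4 of 38 deoxycholic acid and 9 of 111 media control cells. It was 0.65 in those with 5 or more and 0.20 in those with 8 or more. These differences between cell sets were not tested, since each group is 1 library.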

How the results depend on the processing

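No paired analysis was possible because the sample letters are not in the cell names, each group is 1 library and no test was run; leaving out a replicate and edgeR were not possible for the same reason. Alternatives chosen after seeing the data were 8 or more UMIs, fewer than 10 primary granule UMIs per 10000, 3 to 4 UMIs alone and leaving out the top cell. The ratio of shares, 0.446, was 0.856 with cells thinned, 0.809 at 2 per 10000, 0.751 with fewer than 10 primary granule UMIs per 10000, 0.633 at 5 or more UMIs and 0.616 at 8 or more. Genes higher and lower in deoxycholic acid, 109 and 173, were 69 and 311 with size factors, 540 and 371 with a filter of 20 CPM alone, 20 and 31 with thinned cells, and 35 and 111 at 8 or more UMIs; at 5 or more, 52 were higher. Genes higher and lower in chosen than in other kept cells, 17 and 53, were 9 and 84 with size factors, 76 and 111 with a mean over cells, and 246 and 140 at 8 or more UMIs; 109 were higher at 5 or more and 5 with 3 to 4 UMIs alone. These alternatives change the scaling, the genes measured or the cells, and the cause of each shift was not tested.

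The direction turned with thinned cells for Cpa3 (-0.14), Mt2 (-0.12), Mrps28 (0.091) and Trem3 (2.68, from 5 UMIs in deoxycholic acid and 1 in media control). At 8 or more UMIs it turned for Cpa3 (-0.071), Hist1h4h (-0.30) and Trem3 (2.09), with 3 to 4 UMIs alone for Nrgn (-0.59), and for Prg2 over other kept cells in 1 library at 8 or more UMIs (-0.66). Hist1h2af and Dynlt1f gave no value with thinned cells, at 3 UMIs or fewer in both libraries. Of the 20 genes named between libraries, 20 stayed within their interval with doublets removed, 18 with size factors, 18 without the top cells, 17 with 3 to 4 UMIs alone, 15 with a mean over cells, 14 at 5 or more UMIs, 3 at 8 or more and 1 with thinned cells. The small number of cells limits every value: 13 deoxycholic acid and 23 media control cells carried most of the Zfpm1 and Ctla2a UMIs of the chosen cells.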

Other observations

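Cells left out by the basophil gene limit also carried rule-gene RNA. Among the cells with at least 10 Prss34 and Mcpt8 UMIs per 10000, 105 in deoxycholic acid and 150 in media control, Itga2b was detected in 44.8% and 54.7%, and Pf4 in 11.4% and 14.7%. In Mpo-rich cells Itga2b was detected in 1.13% in deoxycholic acid and 2.45% in media control. Thinned to 5000 UMIs, Itga2b was detected in 36.8% of basophil-gene-rich cells in deoxycholic acid and 43.0% in media control, against 0.423% and 0.656% of Mpo-rich cells. Pf4 was then detected in 2.94% (0.358 to 10.2) and 6.14% (2.50 to 12.2) of basophil-gene-rich cells, against 7.14% and 8.35% of Mpo-rich cells, and the interval reaches the Mpo-rich value in both libraries.

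Gzmb, encoding granzyme B, had 8 UMIs in chosen deoxycholic acid cells and 100 in chosen media control cells, a log2 ratio of -1.88. It belongs to the mast cell and basophil list, in which 6 measured genes were higher and 1 lower in deoxycholic acid. The difference was not tested, and the spread of these UMIs over cells is not given here.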
